A study of Mus musculus with 9 samples.

Results

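The genes described here are the 9 adaptors and enzymes that lead from LAT to Ras in T cells, chosen by symbol from the 24060 genes of the expression table: Lat, Lcp2, Plcg1, Vav1, Themis, Grb2, Sos1, Rasgrp1 and Rasa2. All 9 were among the 12115 genes tested. Expression was measured by RNA-seq of non-activated CD8 T cells from the transnuclear mouse strains Rop7-I, Rop7-II and Rop7-III, with 3 biological replicates per strain and 9 samples in all. Each strain was made by transfer of the nucleus of a single T cell, so that its T cells carry the rearranged T-cell receptor (TCR) of that cell, and the TCRs of all the strains recognise the Toxoplasma epitope Rop7 on H-2Ld. The mice had been backcrossed to BALB/c, and the study describes the cells of this experiment as homozygous. Cells of every strain spent a night in culture with 10 ng/ml IL-2 and no antigen and were then sorted as CD3+ CD8+ cells that bound the H-2Ld-Rop7 reagent, with a purity of 90 to 95%. Each strain derives from 1 founder nucleus, so a difference between strains cannot be told apart from any other difference between those founders. The strains are called clones below.

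When the TCR is engaged, the kinase ZAP70 phosphorylates LAT, a transmembrane adaptor, and LAT then assembles a signalling complex at the membrane. The adaptor SLP-76 (Lcp2) brings in the phospholipase PLC-gamma, which releases diacylglycerol and inositol trisphosphate, while the adaptor Grb2 brings in the exchange factor Sos. Ras is loaded with GTP by Sos and by the diacylglycerol-dependent exchange factor RasGRP, and GTPase-activating proteins such as Rasa2 switch it off. The study examined non-activated transcriptomes to look for sources of the unequal effector functions of the clones, and set Rop7-III beside Rop7-II because it ranked their self-reactivity as highest and lowest.

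The members were expressed in every sample at closely similar levels in the 3 clones. Their summed level was 2204 to 2434 TPM, of which Lat alone made up 41.2 to 46.5%. TPM are reads divided by transcript length and scaled to the same total in each sample. Relative to Rop7-II T cells, Rop7-III T cells had more Themis and less Lat, Rop7-I T cells also had less Lat, and no other difference of a member passed the test. The test was limma on log2(TPM + 1), with p adjusted over all tested genes and a limit of 0.01. Within each member, the highest of the 9 samples was between 1.12 and 1.22 times the lowest, and no member reached a 2-fold difference between clones. In bulk RNA, a smaller number of cells of a type and less RNA per cell cannot be told apart.

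Marker genes were examined before the members were compared. The summed level of Cd8a, Cd8b1, Cd3d, Cd3e and Cd3g was 4996 to 5165 TPM in Rop7-I, 5255 to 5603 TPM in Rop7-II and 4973 to 5121 TPM in Rop7-III. The 5 CD4 T-cell markers summed to 24.15 to 36.05, 28.75 to 47.61 and 23.48 to 26.46 TPM in turn. Of these, Ctla4 was at 18.67 to 34.93 TPM. Cd4 was at 6.75 TPM in Rop7-II replicate 1 and at 0.12 to 0.94 TPM elsewhere. Cd40lg was at 2.9 to 3.7 TPM in Rop7-III and at most 0.7 TPM elsewhere. Rop7-II replicate 1 stood apart. It had the highest level of all 12 B-cell markers, which summed to 1783 TPM there and to 142 and 193 TPM in the other Rop7-II samples. The B-cell markers also differed between the other clones, at 285 to 756 TPM for Rop7-I and 108 to 236 TPM for Rop7-III, without overlap. Rop7-II replicate 1 was highest for all 9 myeloid markers too, which summed to 646 TPM there. The myeloid sum was 222.1 TPM in Rop7-II replicate 3 and 38.2 to 135.6 TPM in the remaining samples. The summed level of 5 natural killer cell markers was 2.89 to 6.16 TPM. Where leaving out Rop7-II replicate 1 moves a member's difference between Rop7-III and Rop7-II by about 1.5 times or more, or bears on a call, both values are given below.

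The start regions of both members that passed the test in any comparison are shown so that the 250 bases before each start can be read beside the values. Lat lies at chr7:126363824-126369570 on the minus strand, and its window is chr7:126369569-126369818. Themis lies at chr10:28668360-28883818 on the plus strand, and its window is chr10:28668110-28668359. The sequences are from RefSeq on GRCm38.p6, read 5′ to 3′ towards the gene.
Lat: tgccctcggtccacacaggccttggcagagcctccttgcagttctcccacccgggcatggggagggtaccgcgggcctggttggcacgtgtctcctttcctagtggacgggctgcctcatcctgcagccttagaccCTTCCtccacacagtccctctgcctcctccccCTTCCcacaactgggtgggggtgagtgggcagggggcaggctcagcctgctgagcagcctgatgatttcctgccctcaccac
Themis: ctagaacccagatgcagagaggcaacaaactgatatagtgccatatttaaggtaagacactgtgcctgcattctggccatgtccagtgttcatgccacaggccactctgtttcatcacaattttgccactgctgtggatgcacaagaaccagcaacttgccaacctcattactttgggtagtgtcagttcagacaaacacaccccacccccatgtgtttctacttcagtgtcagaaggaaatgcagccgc
Capitals mark the letters GGAAG, the form of the ETS core that was searched on both strands. CTTCC is the same form on the opposite strand. GGAA without the last G was not searched by itself. It occurs near the end of the Themis window, and its opposite-strand form TTCC also occurs outside the capitals in the Lat window. The Lat window held 2 matches of GGAAG on either strand and the Themis window held 0, where 64.07% of 32851 windows of the same length held at least 1. The letters TGTGGT of the RUNX core were found in neither window (14.05% of all windows held them), nor were the letters AGATAA of the GATA core (9.988% of all windows). A match is a description of the letters and not a measured binding site. The Lat window was 65.2% G and C, and that of Themis was 48%.

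Lat, the scaffold of the complex, was the most abundant member. It was at 997, 931 and 964 TPM in Rop7-I, at 1079, 1085 and 1133 TPM in Rop7-II, and at 971, 965 and 942 TPM in Rop7-III. Every Rop7-II sample lay above all 6 samples of the other clones, and the samples of Rop7-I and Rop7-III overlapped. Lat ranked above at least 98.9% of the tested genes in each sample. Its level in Rop7-III was 0.87 times that in Rop7-II, a log2 fold change of -0.20 (SE 0.03, 95% interval -0.27 to -0.12), which passed the test with a limma adjusted p of 0.00294. In Rop7-I it was 0.88 times that in Rop7-II, a log2 fold change of -0.19 (SE 0.03, 95% interval -0.26 to -0.11), with a limma adjusted p of 0.00514. Between Rop7-III and Rop7-I the log2 fold change was -0.01 (95% interval -0.08 to 0.07). Both differences use the same Rop7-II samples and are therefore not independent of each other. Without Rop7-II replicate 1 they were -0.21 (limma adjusted p = 0.00495) and -0.20 (limma adjusted p = 0.00775). Cd8a and Cd8b1 were also highest in the 3 Rop7-II samples, at 785 to 839 and 2235 to 2386 TPM, while Cd3d was lowest there, at 620 to 659 TPM; their part in the Lat difference was not tested.

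The Lat calls lay close to the limit. For Rop7-III against Rop7-II the call was lost when Rop7-II replicate 3 or any 1 of the 3 Rop7-III samples was left out, with limma adjusted p values of 0.0109 to 0.0141 and log2 fold changes of -0.17 to -0.20. For Rop7-I against Rop7-II it was lost without replicate 2 or 3 of Rop7-I, without replicate 2 or 3 of Rop7-II, and without replicate 1 or 2 of Rop7-III, with limma adjusted p values of 0.0111 to 0.0238 and log2 fold changes of -0.16 to -0.20. Quantile normalization ended both calls, with log2 fold changes of -0.15 (limma adjusted p = 0.0211) and -0.14 (limma adjusted p = 0.0406). A fit with no trend also ended both (limma adjusted p = 0.0131 and 0.0212), and the second was lost with no filter, with only the clones compared and with the replicate block too (limma adjusted p = 0.012, 0.0239 and 0.013).

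Themis, an adaptor of the T-cell lineage that binds Grb2 and is known for its part in thymocyte selection, showed the opposite order of clones. It was at 138, 132.5 and 140.04 TPM in Rop7-I, at 123, 132 and 126 TPM in Rop7-II, and at 149.97, 147 and 148 TPM in Rop7-III. All Rop7-III samples lay above all other samples, and all Rop7-II samples lay below all Rop7-I samples. The closest Rop7-I and Rop7-II samples were almost equal, at 132.5 TPM in Rop7-I replicate 2 and 132.29 TPM in Rop7-II replicate 2. The level in Rop7-III was 1.17 times that in Rop7-II, a log2 fold change of 0.22 (SE 0.03, 95% interval 0.14 to 0.30) that passed the test with a limma adjusted p of 0.00197. The steps between neighbouring clones did not pass: Rop7-III against Rop7-I gave 0.12 (95% interval 0.04 to 0.20, limma adjusted p = 0.0563), and Rop7-I against Rop7-II gave 0.11 (95% interval 0.03 to 0.18, limma adjusted p = 0.0673). With Rop7-II replicate 1 left out, this log2 fold change was 0.20 (limma adjusted p = 0.00573). The call was lost without Rop7-III replicate 1, at 0.21 with a limma adjusted p of 0.011. Themis overlaps 4930519F09Rik on the opposite strand, and the libraries kept no strand, so that reads from the overlap cannot be told apart.

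**Figure D1:**
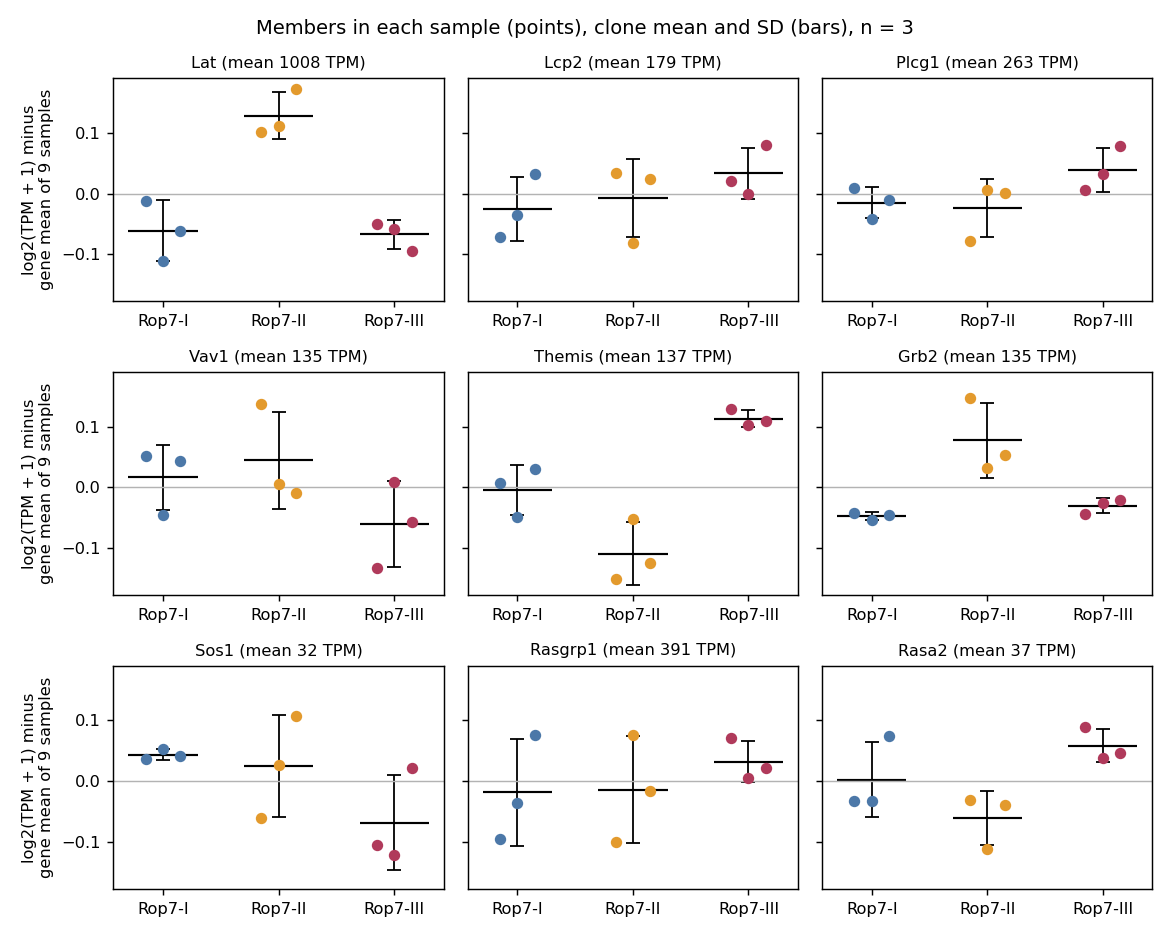
Level of each of the 9 members in every sample, as log2(TPM + 1) minus the gene's mean over the 9 samples, on 1 common axis. Points are samples, and bars show the clone mean and SD (n = 3). Lat was highest in the 3 Rop7-II samples and Themis in the 3 Rop7-III samples, and the clone means of the other members lay closer together.

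The 2 further adaptors, Grb2 and Lcp2, did not pass the test in any comparison. Grb2 was at 131, 129.6 and 130.4 TPM in Rop7-I, at 149, 138 and 139.8 TPM in Rop7-II, and at 131, 132 and 133 TPM in Rop7-III. All Rop7-II samples lay above the other 6 samples, with Rop7-II replicate 1 the highest. The log2 fold change was -0.11 for Rop7-III against Rop7-II (95% interval -0.18 to -0.03, limma adjusted p = 0.0447) and -0.12 for Rop7-I against Rop7-II (95% interval -0.20 to -0.05, limma adjusted p = 0.0334). Without Rop7-II replicate 1 these were -0.07 and -0.09, with limma adjusted p values of 0.0971 and 0.0607. Lcp2, which encodes SLP-76, was at 170.1, 174.5 and 183 TPM in Rop7-I, at 183, 169 and 182 TPM in Rop7-II, and at 181, 179 and 189 TPM in Rop7-III. The clones overlapped in every comparison, and the log2 fold changes lay between -0.02 and 0.06, with 95% intervals that reached from -0.11 to 0.15 at the widest. Without Rop7-II replicate 1 the log2 fold change of Lcp2 for Rop7-III against Rop7-II was 0.06 in place of 0.04 (limma adjusted p = 0.372).

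Plcg1, the phospholipase recruited by LAT and SLP-76, was at 264, 255 and 260.4 TPM in Rop7-I, at 248, 263.5 and 263 TPM in Rop7-II, and at 264, 268 and 277 TPM in Rop7-III. The Rop7-III samples lay just above those of Rop7-II, with almost equal values in the closest pair of samples. The log2 fold change was 0.06 (95% interval -0.01 to 0.14, limma adjusted p = 0.198), and Rop7-I overlapped both other clones. Plcg1 was lowest in Rop7-II replicate 1, and without it the log2 fold change was 0.04 (limma adjusted p = 0.46). Plcg1 overlaps Zhx3 on the opposite strand, and their reads in the overlap cannot be told apart.

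Vav1 encodes an exchange factor that joins the complex through SLP-76. It was at 139.8, 131 and 139 TPM in Rop7-I, at 148, 135 and 134 TPM in Rop7-II, and at 123, 136 and 129.7 TPM in Rop7-III. The clones overlapped, and the highest value was in Rop7-II replicate 1 and the lowest in Rop7-III replicate 1. For Rop7-III against Rop7-II the log2 fold change was -0.10 (95% interval -0.22 to 0.01, limma adjusted p = 0.167), and without Rop7-II replicate 1 it was -0.06 (limma adjusted p = 0.416).

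The Ras exchange factors Rasgrp1 and Sos1 differed widely in level and little between clones. Rasgrp1 was at 366, 381 and 412 TPM in Rop7-I, at 365, 412 and 386 TPM in Rop7-II, and at 411, 392 and 397 TPM in Rop7-III, and the clones overlapped in every comparison. Sos1 was at 32.7, 33.1 and 32.8 TPM in Rop7-I, at 30.5, 32.5 and 34.4 TPM in Rop7-II, and at 29.6, 29.2 and 32.4 TPM in Rop7-III. The Rop7-III samples of Sos1 lay below all Rop7-I samples and overlapped Rop7-II, with log2 fold changes of -0.11 (95% interval -0.24 to 0.01, limma adjusted p = 0.234) and -0.09 (95% interval -0.22 to 0.03, limma adjusted p = 0.26). The log2 fold changes of Rasgrp1 were between -0.00472 and 0.05, and the widest 95% intervals reached from -0.12 to 0.17. Rasgrp1 was lowest in Rop7-II replicate 1, and without it the log2 fold change for Rop7-III against Rop7-II was 0.0027 in place of 0.05 (limma adjusted p = 0.978), and that of Sos1 was -0.14 (limma adjusted p = 0.124). Within each sample Rasgrp1 had 11.2 to 13.9 times the TPM of Sos1, which is a ratio of transcript levels per length and not of protein.

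Rasa2, the Ras GTPase-activating protein among the members, was at 36.6, 36.6 and 39.5 TPM in Rop7-I, at 36.6, 34.6 and 36.4 TPM in Rop7-II, and at 39.9, 38.5 and 38.7 TPM in Rop7-III. The Rop7-III samples lay above the Rop7-II samples, and Rop7-I overlapped both. Relative to Rop7-II, the log2 fold change was 0.12 (95% interval 0.02 to 0.22), which did not pass the test (limma adjusted p = 0.0849). In each sample the TPM of Rasgrp1 was 9.96 to 11.9 times that of Rasa2.

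Counted over the members, Rop7-III against Rop7-II gave 2 called genes of 9, Themis higher and Lat lower, where 12.3% of all tested genes were called. In the same comparison 4 members had an unadjusted p under 0.05, as did 4584 of the 12115 tested genes, and 5 members had samples that did not overlap between the clones (Lat, Themis, Grb2, Plcg1 and Rasa2), where 40.7% of all tested genes did not overlap. Rop7-III against Rop7-I gave 0 called members by limma, with 1 (Themis) at an unadjusted p under 0.05, where 4.85% of tested genes were called; 2 members, Themis and Sos1, did not overlap, against 38.2% of tested genes. Rop7-I against Rop7-II gave 1 called member, Lat, where 7.53% of tested genes were called, and 3 members (Lat, Themis and Grb2) that did not overlap, against 35.0% of tested genes. As shares of the 9 members, the called genes were 22.2%, 0% and 11.1% in turn, and 1 gene more or less moves such a share by 11.1%, so nothing particular to the members is read from these counts. The median size of the log2 fold change over the members was 0.10, 0.06 and 0.03 in these comparisons in turn, and over all tested genes it was 0.13, 0.10 and 0.12. The comparisons share samples, since each clone enters 2 of them.

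**Figure D2:**
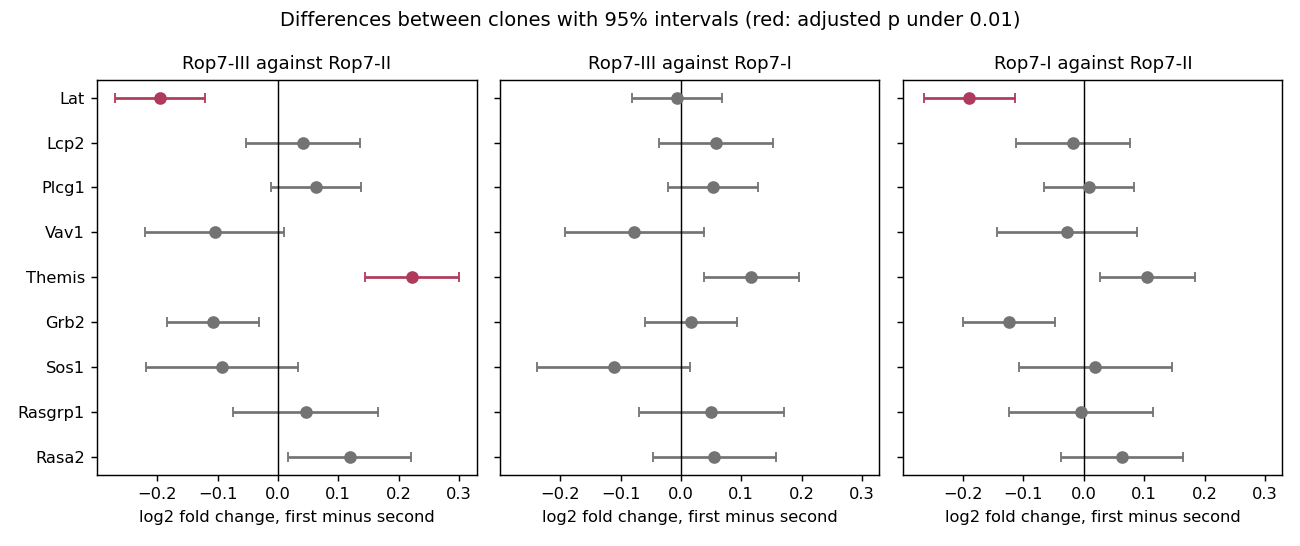
Difference of each member in the 3 comparisons, as log2 fold change of the first clone minus the second on the log2(TPM + 1) scale, with 95% intervals from limma. Red marks an adjusted p under 0.01, which Lat reached in 2 comparisons and Themis in 1; all points lie between -0.20 and 0.22.

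The order of clones by mean level was not the same for all members. Plcg1, Themis and Rasa2 ran from Rop7-III through Rop7-I to Rop7-II, Lat and Vav1 ran from Rop7-II through Rop7-I to Rop7-III, and the other 4 members had other orders. Of the neighbours in these orders, only Rop7-II and Rop7-I for Lat passed the test. The ratio of Lat to Themis, which moved in opposite directions, was 7.05 ± 0.18 in Rop7-I, 8.65 ± 0.41 in Rop7-II and 6.47 ± 0.09 in Rop7-III (SD, n = 3). Their calls chose this ratio, and it is given as a description.

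Most members have relatives that were measured in the same samples. Among the relatives of Rasgrp1, Rasgrp2, known mainly as an exchange factor for Rap1, was at 277.5, 282 and 293 TPM in Rop7-I, at 361, 370 and 356 TPM in Rop7-II, and at 337, 343 and 343 TPM in Rop7-III. No clone overlapped another. Against Rop7-II, Rasgrp2 was lower in Rop7-I, by -0.35 on the log2 scale (SE 0.03, limma adjusted p = 8.54e-05), and higher in Rop7-III than in Rop7-I, by 0.26 (SE 0.03, limma adjusted p = 0.000621), and neither call was lost when any 1 sample was left out. Sos2, the second Sos exchange factor, was at 22.4, 21.5 and 22.6 TPM in Rop7-I, at 19.6, 17.2 and 15.5 TPM in Rop7-II, and at 26.9, 26.1 and 28.5 TPM in Rop7-III. Its clones did not overlap either. The level of Sos2 in Rop7-III was 1.53 times that in Rop7-II, a log2 fold change of 0.62 (SE 0.08, limma adjusted p = 0.000622), while that of Sos1 in the same comparison was -0.09. Rasa3, a GTPase-activating protein for Ras and Rap, was at 488 to 502 TPM in Rop7-I, 514 to 549 TPM in Rop7-II and 564 to 586 TPM in Rop7-III. Rasa3 was higher in Rop7-III than in Rop7-I, with a log2 fold change of 0.20 (limma adjusted p = 0.00392); the call was lost without any 1 of the 6 samples compared, with limma adjusted p values up to 0.0217, and also with no trend (0.0184) or the B-cell covariate (0.0138). Rasa1, at 70.2 to 76.1 TPM, did not pass the test in any comparison.

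Relatives known from B cells and myeloid cells stood apart in 1 library. Plcg2 was at 22.9 TPM in Rop7-II replicate 1 and at 2.21 to 8.18 TPM in the other 8 samples, and Lat2 at 22.8 TPM against 3.33 to 9.33 TPM. Themis2 was at 10.1 TPM there against 1.63 to 4.23 TPM, and Rasgrp3 at 8.72 TPM against 0.54 to 4.75 TPM. This is the library in which all 12 B-cell and all 9 myeloid markers were highest. None of these 4 genes passed the test with all samples, and their 95% intervals for Rop7-III against Rop7-II reached beyond 1 log2 unit below 0. Without that library Lat2 was called for Rop7-III against Rop7-I, with the same log2 fold change of -0.88 as with all samples. Lat2 was at 6.42 to 9.33 TPM in Rop7-I and at 3.33 to 4.48 TPM in Rop7-III, and the B-cell markers were also higher in every Rop7-I sample, as given above. Their part in the Lat2 difference was not tested. At these levels Plcg1 had the far higher TPM of the PLC-gamma pair in every sample.

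**Figure D3:**
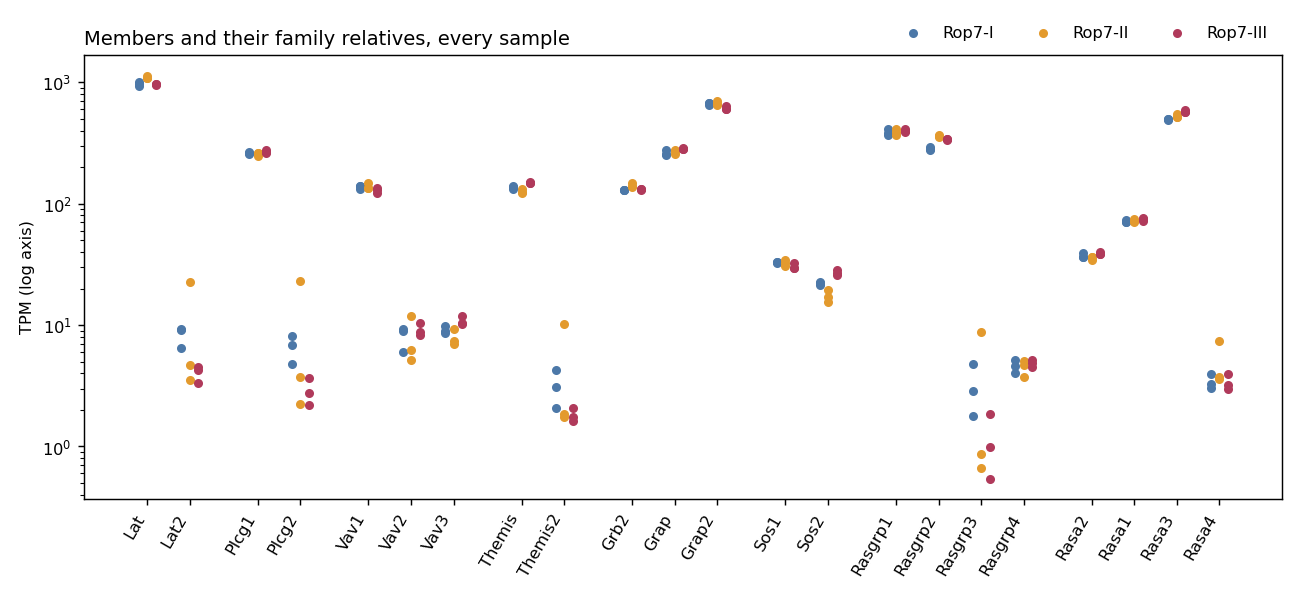
Levels of 8 members and their family relatives in every sample, in TPM on a log axis, coloured by clone. Rop7-II replicate 1 is the single high point for Lat2, Plcg2, Themis2, Rasgrp3 and Rasa4, for example 22.9 TPM for Plcg2, while the members themselves form tight groups.

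The other genes of the pathway were taken from a list of 78 genes in 7 roles, of which 71 were tested. The 7 that were not tested (Bcar1, Mras, Rasal2, Dab2ip, Spry1, Spry2 and Spry4) reached at most 0.31 TPM. For Rop7-III against Rop7-II, 12 of 71 were called. Of these, 8 were higher and 4 lower in Rop7-III. The share is 16.9% beside 12.3% of all tested genes. For Rop7-III against Rop7-I, 6 were called, 5 higher and 1 lower, which is 8.45% beside 4.85%. For Rop7-I against Rop7-II, 5 were called, of which 4 were higher and 1 was lower in Rop7-I, or 7.04% beside 7.53%. The median log2 fold change of the list was 0.02, 0.04 and -0.02 in turn, and that of all tested genes was -0.02, -0.0035 and -0.01. No gene of the list was both called and 2-fold different. Without Rop7-II replicate 1 the counts were 15, 7 and 9.

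Among the genes of the PLC-gamma arm, 4 of 15 were called for Rop7-III against Rop7-II, 3 higher and 1 lower, beside 12.3% of all tested genes. Itpr1, a calcium channel opened by inositol trisphosphate, was at 32.4, 32.7 and 36.6 TPM in Rop7-I, at 32.4, 28.9 and 30.8 TPM in Rop7-II, and at 60.2, 56.7 and 54.1 TPM in Rop7-III. All Rop7-III samples lay above all others. Its level in Rop7-III was 1.83 times that in Rop7-II (log2 fold change 0.87, SE 0.06, limma adjusted p = 3.07e-05) and 1.66 times that in Rop7-I (0.73, SE 0.06, limma adjusted p = 0.000172). Prkca, a diacylglycerol-dependent kinase at 17.25 to 27.65 TPM, was higher in Rop7-III, by 0.47 on the log2 scale relative to Rop7-II (limma adjusted p = 0.00139). Its relatives Prkcq (422 to 488 TPM), Prkcb (107 to 123 TPM) and Prkcd (83.2 to 118 TPM) were not called. Their log2 fold changes were -0.11, -0.11 and -0.04 in turn (limma adjusted p = 0.0798, 0.0388 and 0.723). Itpr3, named after its values were seen, was lower in Rop7-III by -0.19 (limma adjusted p = 0.00535), and its call was lost without Rop7-II replicate 1 or 3 or Rop7-III replicate 1 or 2 (limma adjusted p up to 0.024). It was also lost with no trend, only the clones compared, the replicate block or the B-cell covariate (limma adjusted p = 0.015, 0.0159, 0.0124 and 0.0103).

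Dgke, a kinase that converts diacylglycerol, was the gene of the arm that was called between Rop7-I and each other clone. It was at 20.8, 19.2 and 21.8 TPM in Rop7-I, at 12.6, 14.7 and 14.1 TPM in Rop7-II, and at 14.3, 14.1 and 14.4 TPM in Rop7-III. Rop7-I lay above both other clones, with a log2 fold change of 0.55 against Rop7-II (SE 0.07, limma adjusted p = 0.00102), and Rop7-III was lower than Rop7-I by -0.50 (SE 0.07, limma adjusted p = 0.00204). The second call was lost without Rop7-I replicate 1 or 3 or any 1 Rop7-III sample, with limma adjusted p values up to 0.0143. The other diacylglycerol kinases of the list had far higher levels. Dgka was at 1616 to 1836 TPM, Dgkz at 390 to 426 TPM and Dgkd at 175 to 232 TPM, and none of them passed the test in any comparison.

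**Figure D4:**
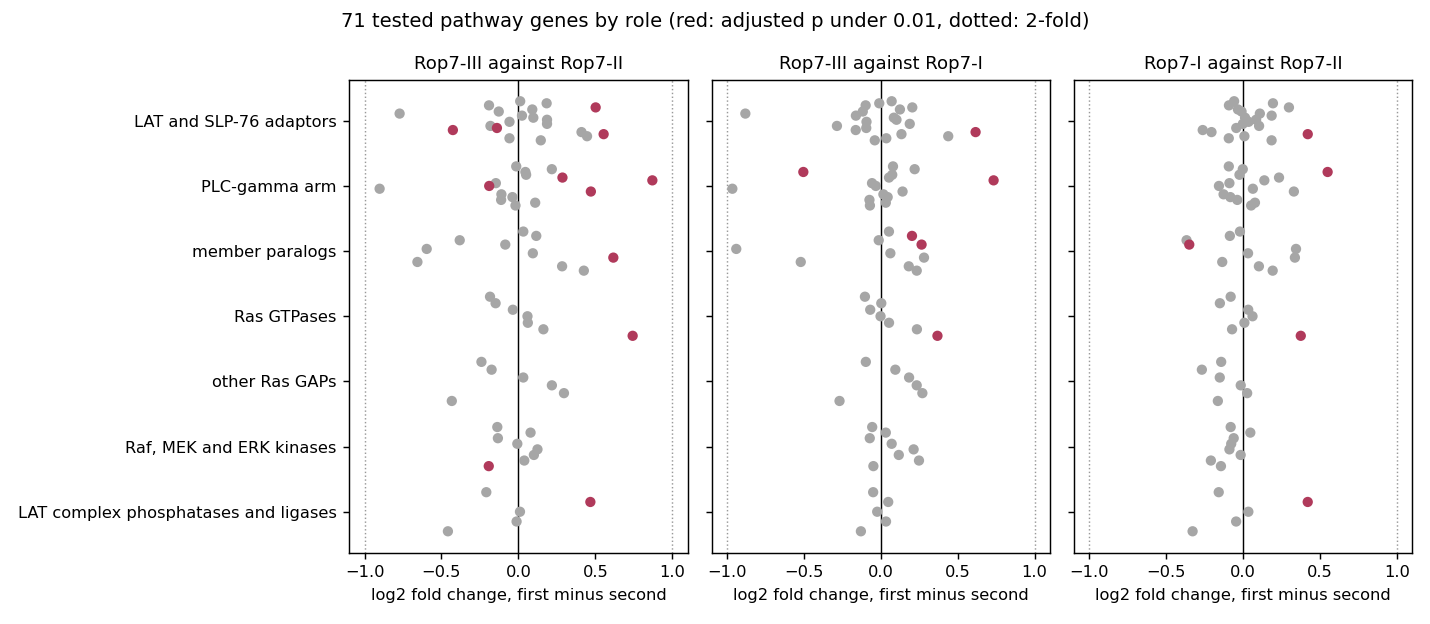
Log2 fold change of the 71 tested pathway genes in the 3 comparisons, grouped by role, on the log2(TPM + 1) scale. Red points passed an adjusted p under 0.01 (12, 6 and 5 genes in turn), and dotted lines mark a 2-fold difference, which none of the red points reached.

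Among 20 tested adaptors of the LAT and SLP-76 complexes, 4 were called for Rop7-III against Rop7-II, 2 in each direction, beside 12.3% of all tested genes. Tespa1, a protein of T-cell development that associates with inositol trisphosphate receptors, was at 21.2, 21.2 and 22 TPM in Rop7-I, at 17, 14.6 and 15.9 TPM in Rop7-II, and at 25.6, 24.1 and 21.5 TPM in Rop7-III. The Rop7-II samples were the lowest. Tespa1 was higher by 0.55 in Rop7-III (SE 0.07, limma adjusted p = 0.000832) and by 0.42 in Rop7-I (SE 0.07, limma adjusted p = 0.00538), each against Rop7-II. The Rop7-I call was lost without any 1 Rop7-I sample, Rop7-II replicate 2 or 3, or Rop7-III replicate 2 (limma adjusted p up to 0.0228), and also with no filter, no trend, only the clones compared or the replicate block (0.0105 to 0.013). Gab3, a scaffold that binds Grb2, was at 24.9 to 28.6 TPM in Rop7-II and at 36.5 to 41.02 TPM in Rop7-III, a log2 fold change of 0.50 (limma adjusted p = 0.000714). Shc1 and Sit1 were lower in Rop7-III, by -0.14 (limma adjusted p = 0.00748) and -0.43 (limma adjusted p = 0.00837). The Shc1 call was lost without any 1 of the 9 samples and the Sit1 call without any 1 except Rop7-III replicate 2, with limma adjusted p values up to 0.0281 and 0.0261. Both were also lost with quantile normalization, no trend, only the clones compared, the replicate block or the B-cell covariate, Shc1 at a common median as well, and Sit1 with no filter or with array weights (limma adjusted p of 0.0107 to 0.0263). Sit1, a transmembrane adaptor of T cells, was named after its values were seen. Skap1, an adaptor of integrin activation, was at 248 to 259 TPM in Rop7-I samples and at 385 to 390 TPM in Rop7-III samples, a log2 fold change of 0.62 (limma adjusted p = 0.004) that was no longer called without any 1 of those 6 samples (limma adjusted p up to 0.0235), or with no filter (0.01) or no trend (0.0133).

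Of 7 tested Ras-family GTPases, Rras2 was called in every comparison and the others in none. This is a share of 14.3% each time. Of all tested genes, 12.3% were called for Rop7-III against Rop7-II, 4.85% for Rop7-III against Rop7-I and 7.53% for Rop7-I against Rop7-II. With 1 gene called, nothing particular to these GTPases is read from the share. Rras2, a Ras relative also called TC21, was at 151, 170.3 and 176 TPM in Rop7-I, at 122, 134 and 127 TPM in Rop7-II, and at 215, 212 and 214 TPM in Rop7-III. The clones did not overlap. The log2 fold change was 0.74 for Rop7-III against Rop7-II (SE 0.06, limma adjusted p = 3.14e-05), 0.37 for Rop7-III against Rop7-I (SE 0.06, limma adjusted p = 0.0031) and 0.37 for Rop7-I against Rop7-II (SE 0.06, limma adjusted p = 0.00221). The second was lost without Rop7-I replicate 2 or any 1 Rop7-III sample (limma adjusted p up to 0.017), and the third without Rop7-I replicate 2 (limma adjusted p = 0.0134). The second was also lost with no trend (limma adjusted p = 0.0119) and with the B-cell marker level as a covariate (0.0107), and the third with only the clones compared (0.0167).

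Among 5 tested phosphatases and ligases of the LAT complex, 1 was called for Rop7-III against Rop7-II and for Rop7-I against Rop7-II. For Rop7-III against Rop7-I there were 0. These shares of 20%, 20% and 0% stand beside 12.3%, 7.53% and 4.85% of all tested genes. Cblb, a ubiquitin ligase known to restrain T-cell activation, was at 77.2, 82.1 and 76.7 TPM in Rop7-I, at 54.4, 57.7 and 64 TPM in Rop7-II, and at 80.9, 78.9 and 84.3 TPM in Rop7-III. The Rop7-II samples were the lowest, with log2 fold changes of 0.47 for Rop7-III (SE 0.06, limma adjusted p = 0.000584) and 0.42 for Rop7-I (SE 0.06, limma adjusted p = 0.0016) against Rop7-II. The second call was lost without Rop7-I replicate 2, at 0.39 with a limma adjusted p of 0.01, and with only the clones compared (limma adjusted p = 0.012). Of 6 tested Ras GTPase-activating proteins and inhibitors other than the Rasa family, 0 were called by limma in any comparison, beside 12.3%, 4.85% and 7.53% of all tested genes. At an unadjusted p under 0.05 there were 4, 3 and 1 of the 6, and 4584, 3395 and 3884 of all 12115 tested genes.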

How the data were processed

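Per the labels and the study's methods, mRNA libraries were made from 200 ng of RNA without strand, and the authors processed the reads with RSEM 1.2.11 against mouse mm10 RefSeq genes and used DESeq2 1.8.1. The authors deposited TPM for 24060 genes, scaled to 1000000 per sample. The study's methods give a typical number of reads per sample, but the TPM hold no counts. The depth of each sample is therefore unknown, and no counting interval was computed. Here, genes with a maximum TPM over 1 were kept (12115), as the authors did. The 3 pairs of clones were compared on log2(TPM + 1) with limma 3.58.1 in R 4.3.3, in 1 fit of all 9 samples that let the spread follow mean expression. Benjamini-Hochberg adjustment ran over all tested genes, with a limit of 0.01. Intervals are 95%. All adjusted p values are from limma.

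Samples labelled as biological replicates were treated as replicates. Nothing in the labels names the animals, so p-values measure the spread between these samples. Alternatives were another pseudocount (0.1 or 0.5), filter, scaling, trend, weights, sample set, replicate block and limit, each sample left out in turn, and, added after seeing the data, the B-cell marker level as a covariate.

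The members and lists were chosen with earlier results of these data known. All 9 members were named, and of the pathway list up to 3 called genes with the smallest p per role and comparison. Some of these genes are not reported here. Positions are from GENCODE on GRCm38 and promoter sequences from RefSeq, where all 9 members had an entry.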

Additional observations from a re-analysis of the deposited data

How the results depend on the processing

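TPM without counts leave the depth of each sample unknown, and 3 samples per clone limit the precision. The member calls lay near the limit. For Rop7-III against Rop7-II, 2 members were called; this was 1 with quantile normalization or without the trend, 0 with a 2-fold minimum, 3 at an adjusted p under 0.05, and 0 to 2 when a sample was left out. For Rop7-I against Rop7-II, 1 was called; this was 0 with no filter, quantile normalization, no trend, only the clones compared or a 2-fold minimum, 2 at an adjusted p under 0.05, and 0 to 1 when a sample was left out. For Rop7-III against Rop7-I, 0 members were called under every alternative. The causes of these shifts were not tested.

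The pathway counts of 12, 6 and 5 (Rop7-III against Rop7-II, Rop7-III against Rop7-I, Rop7-I against Rop7-II) became 27, 11 and 15 at an adjusted p under 0.05 and 0, 0 and 0 with a 2-fold minimum. They ranged over 8 to 15, 2 to 8 and 2 to 9 when a sample was left out. For Rop7-III against Rop7-I the count was 3 without the trend, 3 without any 1 Rop7-I sample and 2 without any 1 Rop7-III sample. For Rop7-I against Rop7-II it was 8 when genes under 1 TPM in any sample were removed, 2 with only the clones compared, 9 with the B-cell marker level as a covariate, 2 without Rop7-I replicate 2, and 9 without Rop7-II replicate 1 or 3.

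The sign changed only in member differences that were not called. For Rop7-III against Rop7-I, Lat (-0.01) became 0.0094 at a common median and ran from -0.031 to 0.0187 when a sample was left out, above 0 if that was Rop7-I replicate 1 or Rop7-III replicate 3. For Rop7-I against Rop7-II, Lcp2 became 0.0019 with quantile normalization, Plcg1 -0.0035 with array weights, and Rasgrp1 0.0101 with the B-cell covariate. With a sample left out, Lcp2 ran from -0.054 to 0.0061 and Plcg1 from -0.0183 to 0.024, both turned by Rop7-I replicate 1 or Rop7-II replicate 1. Vav1 ran from -0.054 to 0.0183 (turned by Rop7-I replicate 2 or Rop7-II replicate 1), Sos1 from -0.0235 to 0.061 (Rop7-II replicate 1), and Rasgrp1 from -0.052 to 0.0402 (Rop7-I replicate 1 or 2 or Rop7-II replicate 2). Of 1000 values of single genes under an alternative, 881 kept their direction and side of the limit, 103 kept only the direction and 16 changed sign. The 1000 include member differences that were not called at first and so could not lose a call. All 103 belong to called differences, so the 881 overstate how steady the calls were.

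Samples that share a replicate number did not deviate together in all pairs of clones. Over 10544 genes their correlations ran from -0.446 to 0.121, with 2 of 9 over 0.1. Those of samples with different numbers ran from -0.263 to 0.369, with 6 of 18 over 0.1. For Rop7-III against Rop7-I, however, same-number values were 0.0837 to 0.119 and the others -0.0782 to -0.0182. The numbers were not taken as pairs, and the replicate block was kept as an alternative. With the replicate block, 2, 0 and 0 members were called in these comparisons in turn, and 9, 6 and 6 pathway genes.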

Other observations

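The genes whose levels ran most like those of the called members were listed as a description, by Pearson's r of log2(TPM + 1) over the 9 samples, which share clones and libraries. For Lat these were Hdac7 (r = 0.977), a histone deacetylase of T cells, Dgcr8 (r = 0.975), of microRNA processing, and Mogs (r = 0.975), of N-glycan trimming, and 28 genes had an r over 0.95. The mean TPM of Hdac7 was 222 in Rop7-I, 273 in Rop7-II and 224 in Rop7-III. For Themis these were Kif3a (r = 0.984), a kinesin motor, Igf2r (r = 0.979), a sorting receptor of lysosomal enzymes, and Map4k4 (r = 0.975), a kinase, and 41 genes had an r over 0.95. The mean TPM of Kif3a was 12.8 in Rop7-I, 10.02 in Rop7-II and 17.6 in Rop7-III.

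Within 1 Mb of the members, 2 genes were called with at least a 2-fold difference between clones, Rnf157 and Ubald2. Both lie near Grb2, and there were 0 near each of the other 8 members. Grb2 had 54 tested neighbours and Lat 56, while Lcp2, Plcg1 and Rasgrp1 had 3 each. Over all 12115 tested genes, 206, 128 and 115 were called and at least 2-fold different. These are for Rop7-III against Rop7-II, Rop7-III against Rop7-I and Rop7-I against Rop7-II in turn. Nothing particular to Grb2 is read from the count.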
